A study of Mus musculus with 18 samples.

Results

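Acetylation of histone H3 at lysine 27 (H3K27ac) was compared between bone marrow-derived macrophages (BMDM) of dystrophic mice that lack Toll-like receptor 4, mdxTLR4-/- BMDM, and BMDM of dystrophic mice with the receptor, mdx BMDM. The comparison rested on 3 of the 18 samples of the series. For mdx BMDM, 2 libraries with the strain label Dmdmdx-4Cv and age labels of 21 and 22 weeks had been merged before peaks were called. For mdxTLR4-/- BMDM there was 1 library, labelled with the strain Bl6/Bl10 and an age of 23 weeks. Further lists served as other readouts. They were H3K27ac of BMDM of wild-type mice (WT, 2 merged libraries labelled C57BL6, 19 and 20 weeks), and H3K27me3 of mdx BMDM (2 libraries, 14 and 15 weeks) and of mdxTLR4-/- BMDM (2 libraries, 16 and 17 weeks), with the strain labels given above. The age labels rise by 1 week from each sample of the series to the next, from 6 to 23, and the strain labels differ from the single background that the study's methods give, so neither is certain. All 3 samples compared carried the mdx defect of dystrophin and were untreated cells grown from marrow for 7 days in medium with L929 supernatant. As labelled, genotype, strain and age cannot be told apart in this design. The members were the 11581 H3K27ac peaks of the mdx list and the 12204 peaks of the mdxTLR4-/- list on chromosomes 1 to 19, and the 20807 protein-coding genes of GENCODE vM21 on those chromosomes, each given the peaks that touched the 5 kb either side of its transcription start. A gene with a peak in both lists was called kept, a gene with a peak in the mdx list only was called lost, and a gene with a peak in the mdxTLR4-/- list only was called gained. Each list is 1 measurement per genotype, so there is no spread between replicates and no test, and every interval given (95%, Wilson for shares and exact Clopper-Pearson for ratios of reads) covers counting error only.

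H3K27ac is laid down by the acetyltransferases p300 and CBP and marks active promoters and enhancers, while trimethylation of the same lysine (H3K27me3) by the Polycomb enzyme EZH2 marks repressed chromatin, so that a lysine cannot carry both. TLR4 recognises bacterial lipopolysaccharide with its partners MD-2 (Ly96) and CD14 and signals through MyD88 and TRIF (Ticam1) to NF-kappaB and the interferon regulatory factors, which act on the promoters and enhancers of cytokine, chemokine and interferon-stimulated genes. BMDM are macrophages grown with CSF1, whose identity rests on PU.1 (Spi1) and C/EBP factors.

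Upstream sequences are shown for 6 genes that the results turn on, each as the 250 bases before the annotated start, read 5′ to 3′ on the gene's strand from GRCm38. Tlr4, the receptor gene itself (chr4:66827334-66827583, + strand), had a peak over its start in both lists. Tnf (chr17:35202008-35202257, - strand), a cytokine gene that TLR4 induces, was lost. Isg15 (chr4:156200819-156201068, - strand), an interferon-stimulated ubiquitin-like modifier, kept a peak with fewer reads. Il6ra (chr3:89913197-89913446, - strand), the receptor of interleukin 6, and Irak3 (chr10:120202131-120202380, - strand), an inhibitor of Toll-like receptor signalling, were lost. Arl4c (chr1:88702222-88702471, - strand), a small GTPase of the ARF family, was gained. Capitals mark letters that match 1 of the 13 motifs searched.
Tlr4: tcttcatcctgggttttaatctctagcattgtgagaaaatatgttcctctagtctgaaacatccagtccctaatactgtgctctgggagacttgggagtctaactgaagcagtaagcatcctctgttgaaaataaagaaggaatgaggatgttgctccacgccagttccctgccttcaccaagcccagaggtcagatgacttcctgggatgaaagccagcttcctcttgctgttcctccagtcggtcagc
Tnf: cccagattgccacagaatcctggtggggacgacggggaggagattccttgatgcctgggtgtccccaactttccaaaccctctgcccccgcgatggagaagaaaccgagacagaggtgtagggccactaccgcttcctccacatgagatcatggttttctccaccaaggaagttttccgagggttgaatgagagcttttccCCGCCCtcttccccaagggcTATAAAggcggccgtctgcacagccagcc
Isg15: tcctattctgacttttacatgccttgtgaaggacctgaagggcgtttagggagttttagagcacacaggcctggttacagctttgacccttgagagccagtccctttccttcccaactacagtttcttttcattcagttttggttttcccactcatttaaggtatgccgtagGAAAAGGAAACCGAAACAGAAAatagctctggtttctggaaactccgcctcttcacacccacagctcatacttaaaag
Il6ra: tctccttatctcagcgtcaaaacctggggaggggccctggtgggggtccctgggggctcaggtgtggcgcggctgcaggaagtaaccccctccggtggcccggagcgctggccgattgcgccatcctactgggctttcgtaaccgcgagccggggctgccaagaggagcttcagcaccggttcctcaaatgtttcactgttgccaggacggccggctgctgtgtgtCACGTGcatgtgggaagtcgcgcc
Irak3: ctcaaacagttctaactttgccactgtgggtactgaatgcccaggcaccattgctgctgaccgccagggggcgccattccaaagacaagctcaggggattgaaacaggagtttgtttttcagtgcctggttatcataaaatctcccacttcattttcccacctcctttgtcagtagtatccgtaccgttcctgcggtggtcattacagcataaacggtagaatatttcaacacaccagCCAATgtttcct
Arl4c: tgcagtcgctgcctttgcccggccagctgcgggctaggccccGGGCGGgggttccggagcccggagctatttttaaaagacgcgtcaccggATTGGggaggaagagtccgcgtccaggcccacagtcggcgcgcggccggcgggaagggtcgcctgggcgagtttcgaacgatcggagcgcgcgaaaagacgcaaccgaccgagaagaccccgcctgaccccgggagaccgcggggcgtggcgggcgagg

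The motifs were searched on both strands, with overlapping matches counted. Among the 20802 genes with a full upstream window, the share with a match was 39.6% for GGGCGG (SP/KLF), 35.5% for CCAAT, 11.6% for TATAAA, 8.21% for CCGGAAG (ETS), 6.60% for CACGTG (E-box), 6.00% for TGANTCA (AP-1), 3.00% for the interferon-stimulated response element (ISRE), 2.36% for GAGGAAGT (PU.1), 1.93% for TGACGTCA (CRE), 0.952% for the NRF1 motif, 0.380% for the NF-kappaB motif, 0.221% for the YY1 motif and 0.154% for TTGCGCAA (C/EBP). The capitals in Isg15 are 3 overlapping matches to the ISRE, read on the other strand. Tnf held 1 GGGCGG and 1 TATAAA. Arl4c held 1 GGGCGG and 1 CCAAT on the other strand, Il6ra 1 CACGTG, and Irak3 1 CCAAT. None of the 13 motifs matched in the Tlr4 window, which says only that these letters do not stand there.

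The autosomal peaks held 186508 reads in mdx and 165505 reads in mdxTLR4-/- BMDM, and a peak of the first list was matched in the second for 7112 of 11581. The depth of the libraries behind the lists is unknown. Peaks were small, with a median of 10 reads over 1800 bp in mdx and 8 reads over 1400 bp in mdxTLR4-/- BMDM, and none had fewer than 5. Exactly 5 reads were held by 163 mdx peaks and by 2521 mdxTLR4-/- peaks. A gene gained on 5 reads therefore lies where the mdx list holds few peaks. The mdx peaks spanned 24.1 Mb of the autosomes, the others 20.5 Mb. Without any overlapping peak in the other list were 38.6% of the mdx peaks (Wilson interval 37.7% to 39.5%) and 40.6% of the mdxTLR4-/- peaks (39.8% to 41.5%). These unmatched peaks were mostly faint, with a median of 8 reads in mdx and 6 reads in mdxTLR4-/- BMDM, and they held 20.1% and 20.2% of the reads. Still, 978 of them in mdx and 567 in mdxTLR4-/- BMDM had 10 reads or more. Every one of the 730 mdx peaks with 30 to 49 reads overlapped an mdxTLR4-/- peak, against 34.3% of the 5076 peaks with 6 to 9 reads. At 50 reads or more, 288 of 289 did. The exception, a peak of 217 mdx reads on chromosome 10 that was 150571 bp from the nearest start of a protein-coding gene, also had a WT peak, with 173 reads. In mdxTLR4-/- BMDM no unmatched peak had over 26 reads. A few dense loci, 10 mdx and 14 mdxTLR4-/- peaks over 100 reads per kb, held 8.30% and 8.81% of all reads.

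The cells carried the acetylation of macrophages in both genotypes. Of 13 macrophage markers, 12 were kept, among them Spi1 with 104 reads in mdx and 95 reads in mdxTLR4-/- BMDM, Lyz2 (lysozyme) with 159 and 85 reads, Cd68 with 37 and 38 reads and Cd14 with 38 and 36 reads. The exception, Csf1r, the receptor of CSF1, had a large intragenic peak in both lists that stood inside the window in the mdxTLR4-/- list only, as described below. Of markers of other cells, 0 of 11 fibroblast and stroma genes, 0 of 8 erythroid genes and 0 of 10 skeletal muscle genes had a peak in either list. Among 10 neutrophil granule genes only Prtn3 had a peak, with 7 reads in mdxTLR4-/- BMDM, among 10 T cell genes only Cd3d, with 12 and 7 reads, and among 9 B cell genes Vpreb1, with 22 and 19 reads, and Ms4a1, with 7 and 12 reads.

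The Tlr4 gene (chr4:66827584-66930284, + strand) had a peak over its start with 29 reads in mdx and 28 reads in mdxTLR4-/- BMDM. In mdx it ran from 183 bp before the start to 1816 bp after it and in mdxTLR4-/- from 183 bp before to 1416 bp after, over the first exon of each of the 4 annotated transcripts. In WT BMDM the peak at the start held 44 reads. Scaled to the reads in peaks, the ratio of mdxTLR4-/- to mdx was 1.09 (exact interval 0.624 to 1.90). Within the gene the mdxTLR4-/- list also had 3 peaks of 5 reads each, and WT BMDM a peak of 8 reads that reached the third exon of a coding transcript, while the mdx list had none there. Which part of Tlr4 the mutant allele lacks is not given in the sources used here, so these peaks do not check the genotype of the library labelled mTLR4.

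Of the 20807 genes, 4857 were kept (23.3%), 1030 were lost (4.95%), 1469 were gained (7.06%) and 13451 had no peak in either list (64.6%). Put over the genes that had a peak, 17.5% of 5887 mdx genes (Wilson interval 16.5% to 18.5%) had none in mdxTLR4-/- BMDM and 23.2% of 6326 mdxTLR4-/- genes (22.2% to 24.3%) had none in mdx BMDM. Neighbouring genes often shared their peaks, so that the 1030 lost genes stood for 860 distinct sets of peaks and the 1469 gained genes for 1238. The excess of gained over lost genes depended on peaks of fewer than 10 reads. With peaks of at least 10 reads alone, 1258 genes were lost and 656 gained, and with such peaks set against any peak of the other list, 380 were lost and 291 gained.

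Whether a gene was kept followed its reads. Lost genes had a median of 8 mdx reads (quartiles 7 and 11), gained genes a median of 7 mdxTLR4-/- reads (quartiles 5 and 9), and kept genes a median of 16 mdx and 14 mdxTLR4-/- reads. Under 10 reads lay 62.2% of the lost and 77.5% of the gained genes, against 19.4% of the kept genes by their mdx reads. Of the mdx genes with 5 to 9 reads, 59.5% were kept, rising through 81.1% at 10 to 14 reads and 92.2% at 15 to 19 reads to 98.8% at 30 reads or more. In the other direction the shares were 54.5%, 81.2% and 93.3%, and 99.6% at 50 reads or more.

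**Figure D1:**
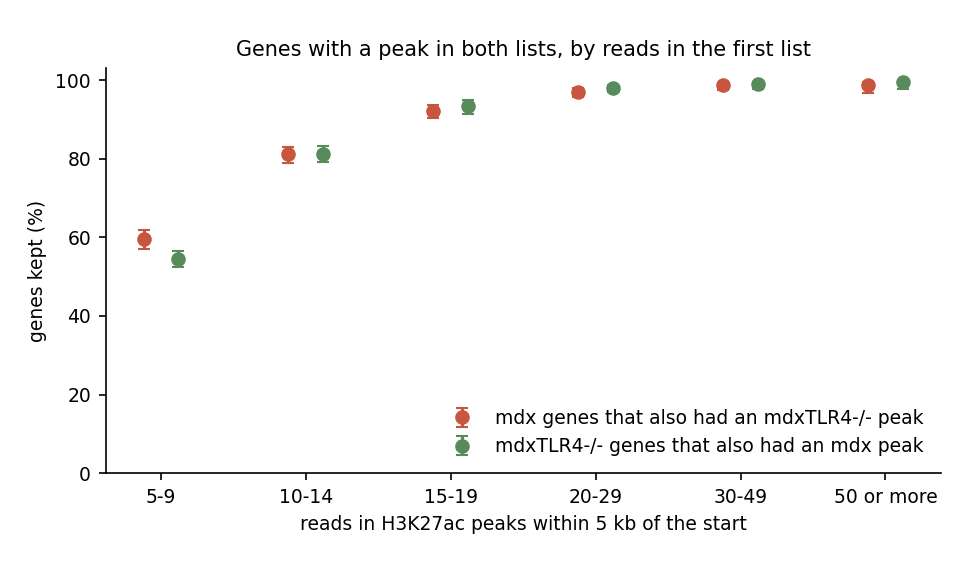
Share of genes with a peak in one list that also had a peak in the other (vertical axis, percent), by the reads in the first list within 5 kb of the start (horizontal axis). Points are shares with 95% Wilson intervals, red for mdx genes and green for mdxTLR4-/- genes; the mdx share climbs from 59.5% at 5 to 9 reads to 98.8% at 50 or more.

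At 20 reads or more only 40 genes were lost and 23 gained. Of these, 17 lost and 7 gained genes had a peak that overlapped a peak of the other list just outside the window, so that the edge of the window set their class. Over all reads this applied to 44 lost and 22 gained genes. Zfp869, which had 55 mdx reads in a peak from 6676 to 4877 bp before its start, was lost although an mdxTLR4-/- peak with 42 reads lay from 6876 to 5277 bp before the start. Csf1r had 165 mdx reads from 5003 to 10802 bp after its start, 3 bp outside the window, and 96 mdxTLR4-/- reads from 4403 to 10202 bp, inside it. Its gain therefore rests, beyond that shift, on a peak of 7 reads upstream of the start. Of the 13 lost genes with the most mdx reads, 9 stood at such an edge, among them Otoa with 51 mdx reads and Hmg20b with 41. Of the 12 gained genes with the most reads, Csf1r, Rhof, Elovl5, Polr1e and Dennd6a did.

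Without any overlapping peak in the other list, the lost genes with the most reads were a group of 16 genes with 21 to 30 mdx reads. Il6ra had 26 mdx reads in 1 peak from 804 bp before to 3595 bp after its start, and 13 reads in WT BMDM, and it had no mdxTLR4-/- peak. Irak3, which shares its peaks with its neighbour Tmbim4, had 23 mdx reads in a peak of 14 over the start and one of 9 upstream. A further mdx peak of 17 reads, from 8070 to 6471 bp before the Irak3 start and outside the window, was matched by an mdxTLR4-/- peak of 26 reads. Rpl3, which encodes a ribosomal protein, and Syngr1 shared 30 mdx reads in peaks of 8 and 22. Inside the larger of these, which crossed the edge of the window, WT BMDM had a peak of 13 reads, from 8132 to 5333 bp before the Rpl3 start and so outside the window. Lyz1, a lysozyme gene near-identical in sequence to its neighbour Lyz2, so that its reads are uncertain, had 27 mdx reads. Sdhb, a subunit of succinate dehydrogenase, had 23, the syndecan gene Sdc3 24, the filamin-binding adaptor Fblim1 26, the transcription factor gene Atf7, which shares its peaks with Gm28047, 23, the calmodulin gene Calm2 22, and Ctcf, which encodes the insulator protein and shares its peaks with Agrp, 21. WT BMDM had peaks at Sdhb (23 reads), Fblim1 (23), Atf7 (19), Calm2 (19) and Ctcf (12), and none at Sdc3.

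Among gained genes without an overlapping mdx peak, 13 held 21 to 37 mdxTLR4-/- reads, and each also had a WT peak. Ntpcr had 37 reads in peaks of 17 and 20 on either side of its start, with 28 reads in WT BMDM. Saraf, a regulator of calcium entry, had 30 reads, of which a peak of 23 upstream was shared with Leprotl1, and 21 in WT BMDM. Arl4c had peaks of 14 reads at and behind its start and 32 reads in WT BMDM. Ankrd40 (27 reads) and Luc7l3 (22 reads) shared a peak that covered the Luc7l3 start and lay upstream of Ankrd40, and each had 40 reads in WT BMDM. Polg2, the accessory subunit of the mitochondrial DNA polymerase, had 26 reads against 31 in WT BMDM, the ubiquitin ligase gene Znrf2 25 against 29, and Rbm26 24 against 15. Szrd1 and the Rab regulator Tbc1d15 had 21 reads each.

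**Figure D2:**
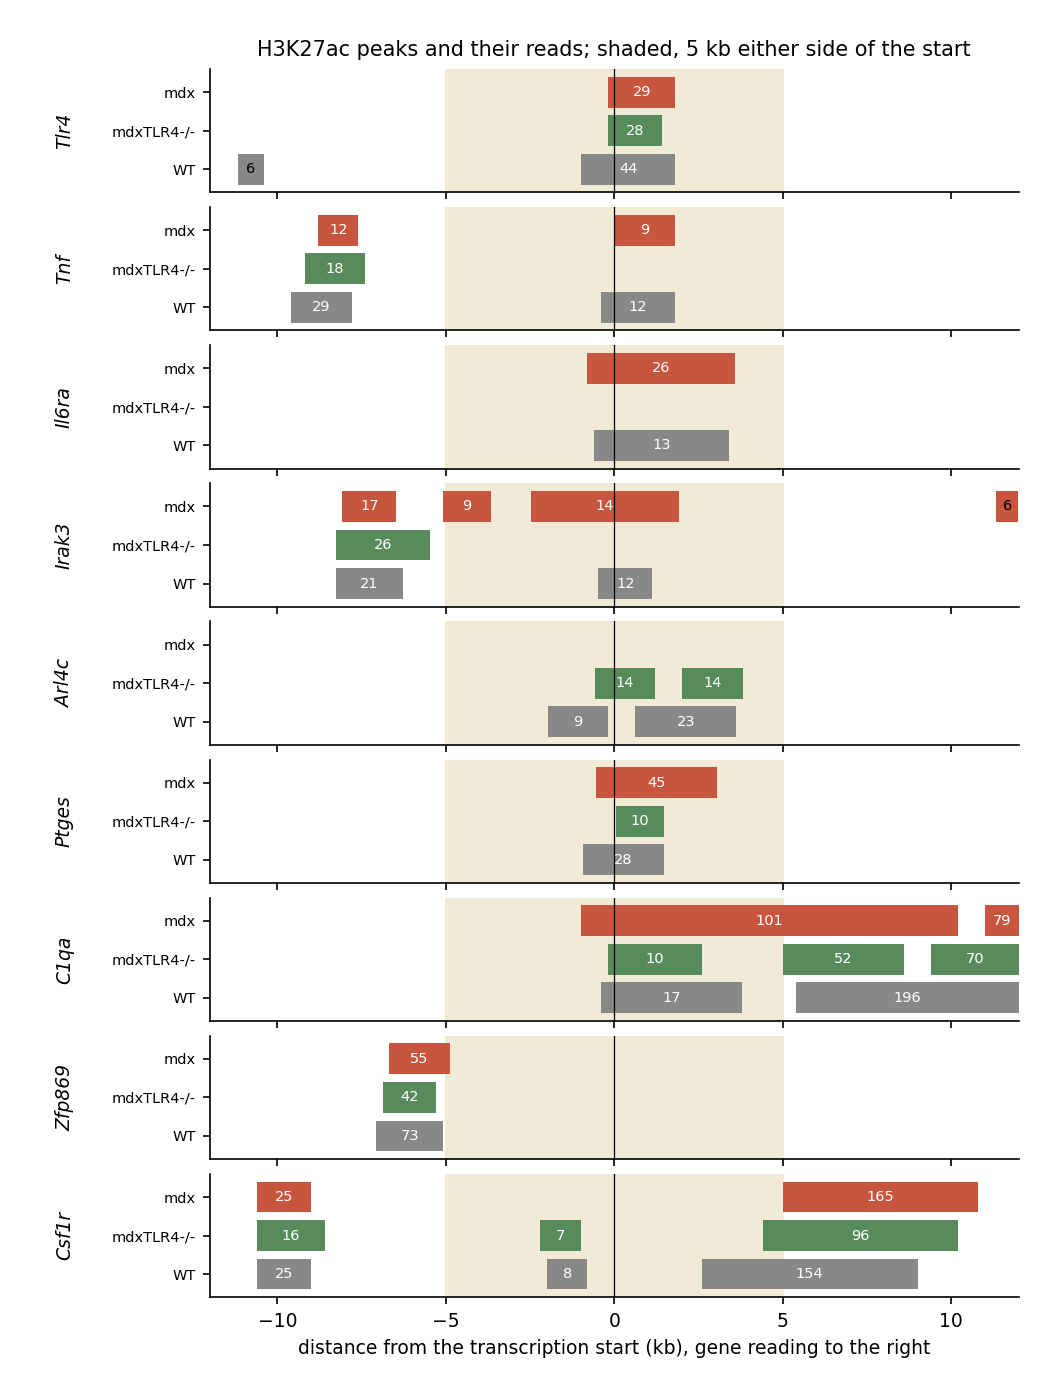
H3K27ac peaks of mdx (red), mdxTLR4-/- (green) and WT BMDM (grey) at 9 genes, as bars along the distance from the transcription start (horizontal axis, kb, clipped at 12 kb), with the reads of each peak printed on it and the 5 kb window shaded. Il6ra has 26 reads in mdx and no mdxTLR4-/- peak, while the mdx and mdxTLR4-/- peaks of Zfp869 and Csf1r lie side by side across the window's edge.

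Other peak lists gave readouts that had not set the classes. In WT BMDM, 57.7% of the lost genes (Wilson interval 54.6% to 60.7%) and 56.6% of the gained genes (54.1% to 59.2%) had an H3K27ac peak in the same window, against 93.5% of the kept and 6.62% of the genes without a peak. At 10 reads or more these shares were 72.0% of 389 lost and 78.2% of 330 gained genes. A peak over the start itself was present at 86.1% of the kept, 56.6% of the lost and 58.5% of the gained genes. H3K27me3 peaks of mdx BMDM reached the windows of 12.1% of the kept, 25.4% of the lost, 23.4% of the gained and 50.6% of the genes without an H3K27ac peak. In the H3K27me3 list of mdxTLR4-/- BMDM the shares were 11.1%, 23.4%, 19.7% and 47.6%. They were lower than in mdx in each class, the genes that lost H3K27ac included. Such shares also depend on the size of each H3K27me3 list, which was not matched here, so no difference between genotypes can be read from them. By signal over input around genes, the study reports the opposite direction, with more H3K27me3 in mdxTLR4-/- than in mdx BMDM. The upstream 250 bases had a median GC content of 58.4% in kept, 56.8% in lost, 58.0% in gained and 52.0% in genes without a peak, and a match to the ETS letters in 14.3%, 14.3%, 13.7% and 4.97%.

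**Figure D3:**
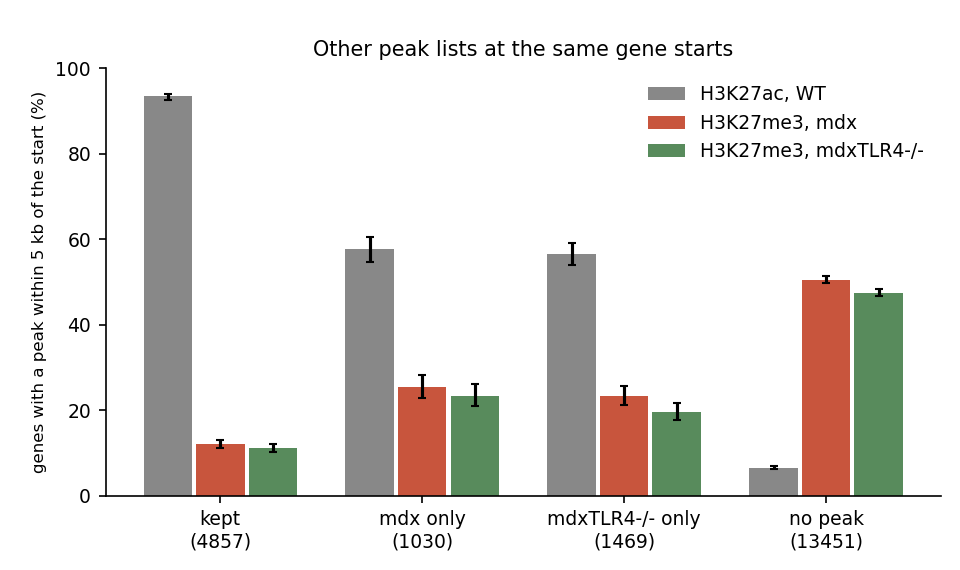
Share of genes with a peak within 5 kb of the start in 3 other lists (vertical axis, percent), for kept genes, genes with an mdx peak only, genes with an mdxTLR4-/- peak only and genes without an H3K27ac peak (number of genes below). Bars are the WT H3K27ac list (grey) and the H3K27me3 lists of mdx (red) and mdxTLR4-/- (green), with 95% Wilson intervals; the 2 one-sided classes have WT H3K27ac at 57.7% and 56.6%.

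Scaling by the reads in peaks centres the ratio of kept genes near 1, so that only differences between genes, and not a shift shared by all, can be read from it. The study reports less H3K27ac signal overall in mdx than in WT BMDM, and a further decrease in mdxTLR4-/- BMDM. Such an overall decrease cannot be read from the scaled ratios. The median ratio of mdxTLR4-/- to mdx reads was 0.875 as deposited and 0.986 after scaling by the reads in autosomal peaks, a factor of 1.13, and 0.77 when scaled to the 1st percentile of read density. After scaling, the quartiles of the ratio were 0.729 and 1.30. Among the 3845 kept genes with at least 20 reads in the lists together, 281 (7.31%) were higher in mdxTLR4-/- BMDM by 2-fold or more and 293 (7.62%) lower. Without scaling, 187 were higher and 470 lower, so the balance of directions depends on the scaling. The same signal was at times called as 1 long peak in one list and as several in the other. At C1qa, the first chain of complement C1q, 101 mdx reads in a peak from 997 bp before to 10202 bp after the start stood against 10 mdxTLR4-/- reads. The next mdxTLR4-/- peak, with 52 reads, began 5003 bp after the start, outside the window, and over the whole merged stretch the reads were 180 and 132. Reads were therefore also summed over merged regions, in which 271 of 3846 genes (7.05%) were higher by 2-fold or more and 269 (6.99%) lower. The exact interval of the ratio left out 1 for 172 of these higher and 163 of these lower genes, which had been picked by the same reads. Over all 3846 genes it lay above 1 for 243 and below 1 for 208. Genes that share peaks are each counted in these numbers.

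**Figure D4:**
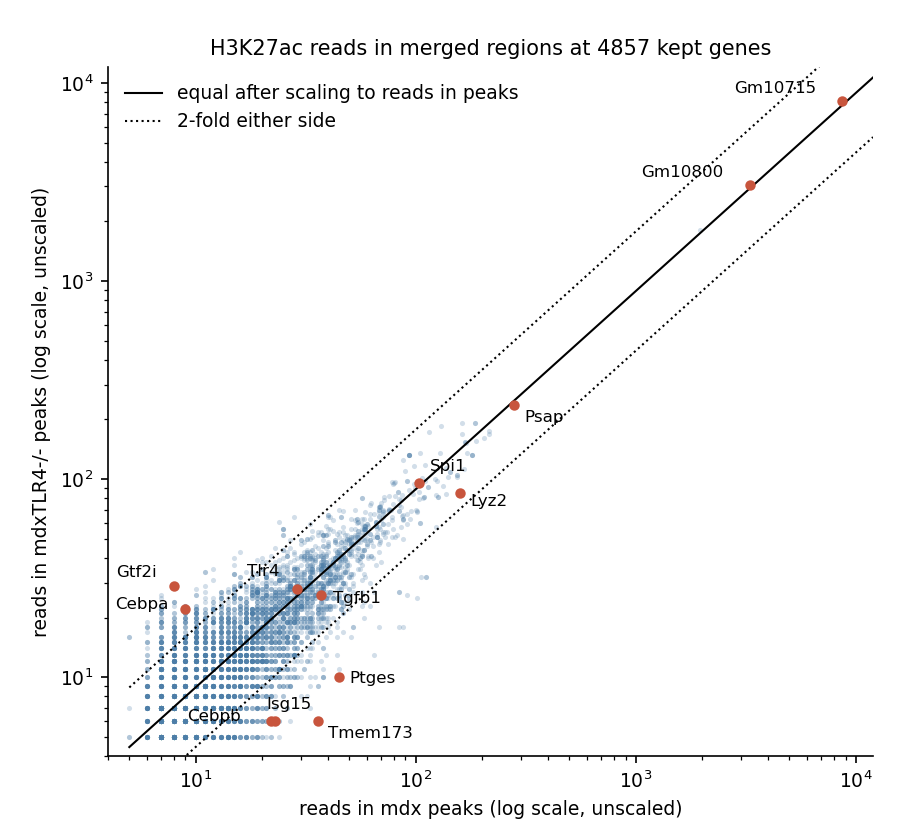
Unscaled reads in merged regions at the 4857 kept genes, mdx BMDM on the horizontal and mdxTLR4-/- BMDM on the vertical axis, both logarithmic, one point per gene. The solid line marks equal reads after scaling and the dotted lines 2-fold either side; Ptges (45 and 10 reads) and Tmem173 (36 and 6) lie below, and Gtf2i (8 and 29) and Cebpa (9 and 22) above.

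The kept genes with the most reads differed little. Psap, the precursor of the saposins that activate lysosomal lipid hydrolases, had 281 mdx and 236 mdxTLR4-/- reads, a scaled ratio of 0.946 (exact interval 0.793 to 1.13). Ctsb, the lysosomal protease cathepsin B, had 215 and 174 reads and the transcription factor gene Zeb2 216 and 169. Arrdc3, an arrestin-like adaptor, had 163 and 191 reads, a ratio of 1.32 (1.07 to 1.64). At 3 dense loci 12 predicted genes had still more, from 8710 and 8085 reads at Gm10715 and its neighbours to 1968 and 1802 at Gm21738. Their scaled ratios lay between 1.03 and 1.05, and since these loci hold near-identical copies the reads are uncertain.

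The lowest ratios in merged regions were found as follows. Tmem173, which encodes the DNA-sensing adaptor STING, had 36 mdx and 6 mdxTLR4-/- reads, with 29 in WT BMDM. Its scaled ratio was 0.188 (exact interval 0.0647 to 0.450). Of its 36 mdx reads, 15 lay in a peak without an overlapping mdxTLR4-/- peak. Ptges, the prostaglandin E synthase, had 45 mdx, 10 mdxTLR4-/- and 28 WT reads and a ratio of 0.250 (0.113 to 0.504). The small GTPase gene Rap2a had 45 and 11 reads, Taf1b of the RNA polymerase I machinery 33 and 7, Adap2 27 and 6, the endocytic adaptor Epn1 24 and 5, the prolyl hydroxylase gene Egln2 22 and 5, Fgd3 22 and 5, and Tpt1 21 and 5. In each of these the mdxTLR4-/- reads were 11 or fewer, close to the smallest peak a list holds. At Taf1b 15 and at Epn1 8 of the mdx reads also lay in a peak of the mdx list alone.

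The remaining genes at the low end lay in the cluster of type I interferon genes. Between Ifnb1 and Ifne (chr4:88522025-88880201) stand 33 protein-coding genes, and 16 of them were kept while 17 had no peak. Of the 16, 13 were lower by 2-fold or more in merged regions and 0 higher. The 15 mdx peaks in the cluster held 288 reads, the 15 mdxTLR4-/- peaks 106 and the 18 WT peaks 425, a scaled ratio of mdxTLR4-/- to mdx of 0.415 (exact interval 0.329 to 0.520). At Ifnz, interferon zeta, the reads were 65 in mdx, 13 in mdxTLR4-/- and 197 in WT BMDM. The acetylated genes of the cluster are near-identical copies that share peaks, so the count of 13 is no count of independent loci and the assignment of reads to each copy is uncertain. Leaving the cluster out, 256 genes were lower by 2-fold or more.

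At the high end, Gtf2i, which encodes the transcription factor TFII-I, had 8 mdx reads in a peak of 400 bp inside the gene and 29 mdxTLR4-/- reads in a peak that covered the start, a scaled ratio of 4.09 (exact interval 1.82 to 10.3), and 33 reads in WT BMDM. The phosphoinositide phosphatase gene Mtmr3 had 7 and 25 reads, the chromatin regulator Asxl1 7 and 23, Pfkfb4, which makes the activator of phosphofructokinase, 7 and 23, the dynein subunit gene Dync1li2 6 and 19, and Fam13b 7 and 26. The histone chaperone gene Hira and the mitochondrial ribosomal protein gene Mrpl40 lie side by side, with 5 mdx reads in a peak from 4036 to 3837 bp before the Hira start and 16 mdxTLR4-/- reads in a peak from 1036 bp before to 1763 bp after it. These 2 peaks do not overlap, so the reads compare different places, and WT BMDM had a peak at each. No peak of one list met a peak of the other at 102 of the 4857 kept genes, 4 of the 271 higher and 5 of the 269 lower ones. At further genes the sums included peaks found in 1 list only. At Asxl1 the overlapping peaks held 7 mdx and 6 mdxTLR4-/- reads, and further mdxTLR4-/- peaks of 7 and 10 reads met no mdx peak. The splicing factor gene Srsf11 and Lrrc40 shared peaks with 11 and 34 reads, and Haus3 and Poln peaks with 7 and 22. WT BMDM had a peak at each of these except Fam13b. These genes, like the lowest ones, were chosen as extremes of the ratio.

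Of the genes of the TLR4 receptor complex and its signalling, 16 of 25 were kept (64.0%), against 23.3% of all protein-coding genes, and the median scaled ratio of the kept members was 1.05, against 0.986 over all kept genes. The receptor partners were near equal, with 51 mdx and 43 mdxTLR4-/- reads at Ly96, 38 and 36 at Cd14 and 57 and 56 at the related receptor gene Cd180. The adaptor gene Myd88 had 17 and 11 reads and the kinase gene Tbk1 45 and 51. Irf5, a transcription factor downstream of MyD88, had 124 mdx, 57 mdxTLR4-/- and 148 WT reads, a ratio of 0.518 (exact interval 0.372 to 0.714), and no kept member passed 2-fold after scaling. Unscaled, the ratio of Irf5 was 0.460, which does. Irak3 was the only lost member (4.00%, against 4.95% of all genes). Traf6, the ubiquitin ligase below MyD88, with 6 reads, Irf3, which TRIF signalling activates, with 11, and the kinase gene Ripk1 with 15 were gained. That was 12.0%, against 7.06% of all genes. Of the other Toll-like receptors Tlr2, Tlr3, Tlr6 and Tlr9 were kept and 4 had no peak.

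Of 14 NF-kappaB subunits and regulators, 11 were kept (78.6%, against 23.3% of all genes) and 0 lost. Only the kinase gene Chuk, with 6 reads, was gained (7.14%, against 7.06% of all genes). The median ratio was 0.966. Nfkbia, the inhibitor IkappaBalpha, had 37 reads in each list. Nfkb1 had 28 and 13 reads, a ratio of 0.523 (exact interval 0.249 to 1.04), or 0.464 unscaled. Of 25 AP-1 and early response genes, 12 were kept (48.0%), with Jun at 80 and 95 reads and Fos at 39 and 30. Of the rest, 4 (16.0%, against 4.95% of all genes) were lost, namely the zinc finger factors Klf4, Klf2 and Egr1 with 11 mdx reads each and Egr2 with 9. Only Nr4a1, with 5 reads, was gained (4.00%, against 7.06% of all genes).

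Cytokine genes had H3K27ac peaks about as often as all genes. Of 26, 15 had no peak (57.7%, against 64.6% of all genes), among them Il6, Il12a, Il12b, Il1a and Il1b. Another 6 were kept (23.1%, against 23.3%). Tnf had 9 mdx reads from 7 to 1806 bp after its start, 12 reads in WT BMDM and no mdxTLR4-/- peak there. A peak upstream of Tnf, outside the window, had 12 mdx and 18 mdxTLR4-/- reads. Another downstream, also outside the window, went the other way, with 16 mdx and 6 mdxTLR4-/- reads. Tgfb1 was kept with 37 and 26 reads, a ratio of 0.792 (exact interval 0.460 to 1.34), and Igf1 with 69 and 56. Il18, with 12 reads, Osm, with 7, Csf1 and Pdgfa, with 5 each, were gained (15.4%, against 7.06% of all genes). Nos2, the inducible nitric oxide synthase, and Chil3, a marker of alternative activation, had no peak in any genotype. Of 18 genes of alternative activation and scavenger receptors, 8 were kept (44.4%, against 23.3% of all genes) and 9 had no peak. The median ratio was 1.21, and 1 gene, the lectin gene Clec10a with 9 mdx reads, was lost (5.56%, against 4.95% of all genes). The mannose receptor gene Mrc1 was kept with 16 and 9 reads and the arginase gene Arg1 with 7 and 8. Of 24 chemokine genes, 7 were kept (29.2%), 0 lost and 4 gained (16.7%, against 7.06% of all genes). The largest gained one was Ccl6 with 15 reads. Ccl3 had 21 and 25 reads, Ccl12 52 and 47, and Pf4 and Ppbp shared a peak with 26 and 41.

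Interferon-stimulated genes were mostly kept, 28 of 36 (77.8%, against 23.3% of all genes), with a median ratio of 0.965. Of the 24 with at least 20 reads, 3 were lower by 2-fold or more and 0 higher. Over all kept genes with such reads, 7.62% were lower and 7.31% higher, so 3 of 24 is too few to set the list apart. Isg15 had 23 mdx, 6 mdxTLR4-/- and 22 WT reads, a ratio of 0.294 (exact interval 0.0979 to 0.743). Oasl1, related to the oligoadenylate synthetases, had 28 and 12 reads (0.224 to 0.981 around 0.483), and Usp18, the protease that removes ISG15, 17 and 7 (0.163 to 1.18 around 0.464). Ifit1, with 16 mdx reads, and Ddx58, the RNA sensor RIG-I, with 13, were lost (5.56%, against 4.95% of all genes). Oas2 (11 mdxTLR4-/- reads) and Rsad2 (7) were among the gained (8.33%, against 7.06%). Others stood level, such as Parp14 with 53 and 52 reads, Oasl2 with 30 and 32, Ifit3 with 40 and 35 and Irf9 with 43 and 35.

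Macrophage lineage and surface genes were kept in 24 of 29 cases (82.8%, against 23.3% of all genes), with a median ratio of 1.03 (0.983 in merged regions). Of the rest, 1 was lost (3.45%, against 4.95% of all genes) and 2, Csf1r and Mitf, were gained (6.90%, against 7.06%). Of the 3 C/EBP genes listed, Cebpd, with the most reads, stood at 44 mdx, 47 mdxTLR4-/- and 51 WT reads, a ratio of 1.20. Cebpa had 9 mdx, 22 mdxTLR4-/- and 22 WT reads, a ratio of 2.75 (exact interval 1.22 to 6.80), and Cebpb had 22, 6 and 28, a ratio of 0.307 (0.102 to 0.782). The Fc receptor gene Fcgr2b had 9 and 20 reads and the integrin gene Itgb2 7 and 13. Ccr2, the receptor of the chemokine CCL2, had 17 mdx reads and was lost, with no WT peak either. Lgals3 (galectin-3) had 104 and 36 reads in the window but a ratio of 0.856 over its merged region. Of 21 genes of lipid handling, 14 were kept (66.7%). Abca1, the cholesterol exporter, stood at 23 and 45 reads (ratio 2.20, exact interval 1.31 to 3.82). The lipid droplet gene Plin2 had 34 and 55 (1.82, 1.17 to 2.88) and Fabp5 7 and 13. Lpl and Npc2 were lost with 12 and 13 mdx reads (9.52%, against 4.95% of all genes). Of 26 lysosome and phagosome genes 18 were kept (69.2%) with a median ratio of 1.06. The cathepsin gene Ctsl, with 9 and 16 reads, reached 2-fold after scaling.

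Glycolysis genes had members in every class. Of 21, 9 were kept (42.9%, against 23.3% of all genes) and 7 had no peak. Another 3 were lost (14.3%, against 4.95% of all genes) and 2 gained (9.52%, against 7.06%). The lost members were Ldha, lactate dehydrogenase, with 19 mdx and 35 WT reads, the phosphofructokinase gene Pfkl with 14 and 15, and the mutase gene Pgam1 with 14 and 18. Gapdh had 34 mdx and 15 mdxTLR4-/- reads (ratio 0.497, exact interval 0.252 to 0.938) and Tpi1 18 and 5 (0.313, 0.0908 to 0.875). In the other direction Pfkm had 10 and 21 reads (2.37, 1.07 to 5.63), Pfkp was gained with 8 and Slc16a3, a lactate exporter, with 5. Over the 9 kept members the median ratio was 0.956, near that of all kept genes. Of 39 genes of the citrate cycle and respiratory chain, 16 were kept (41.0%). Lost were 5 (12.8%) and gained 10 (25.6%), against 4.95% and 7.06% of all genes. All but 3 of the gained ones had under 10 reads. The 3 were Cox4i1 with 16, Idh2 with 10 and Uqcrfs1 with 10. In the mevalonate pathway 3 of 16 genes were kept, 2 of 16 lost and 4 of 16 gained. Over all genes 23.3% were kept, 4.95% lost and 7.06% gained.

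Housekeeping lists were widely acetylated and held members of both directions. Of 75 ribosomal protein genes, 46 were kept (61.3%), 8 lost (10.7%) and 8 gained (10.7%), against 23.3%, 4.95% and 7.06% of all genes. Of these ribosomal protein genes, 36 were kept with at least 20 reads. In merged regions 4 were lower by 2-fold or more, among them Rpl14, Rpl23 and Rpl22, and 1 higher, Rps15a. Over all kept genes with such reads, 6.99% were lower and 7.05% higher, so these counts are too few to set the list apart. The median ratio was 0.997. Of 32 translation factors 21 were kept (65.6%), 5 lost (15.6%) and 2 gained (6.25%). Of 34 proteasome subunits 24 were kept (70.6%), 1 lost (2.94%) and 6 gained (17.6%), with a median ratio of 0.802. Only Psmb5, with 17 and 6 reads, passed 2-fold. Replication-dependent histone genes were the most widely kept, 59 of 64, with a median ratio of 1.18, though they lie in clusters that share peaks and hold near-identical copies, so their reads are uncertain. Of 40 cell cycle and replication genes 17 were kept (42.5%, against 23.3% of all genes). The kinase inhibitor gene Cdkn1a (p21) stood at 38 and 14 reads (ratio 0.415, exact interval 0.208 to 0.784). The origin recognition gene Orc1 had 7 and 18 (2.90, 1.15 to 8.21) and the mitotic kinase gene Aurkb 6 and 17 (3.19, 1.20 to 9.89). Of 30 stress response genes 21 were kept (70.0%) with a median ratio of 1.01.

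Among the writers and erasers of H3K27 marks, 9 of 24 genes were kept (37.5%), 4 lost (16.7%) and 5 gained (20.8%). Over all genes these shares were 23.3%, 4.95% and 7.06%. Ezh2, the H3K27 methyltransferase, was gained with 15 mdxTLR4-/- reads, against 0 in mdx and 7 in WT BMDM, and Crebbp (CBP) with 5. Ep300 (p300) had 21 and 9 reads, a ratio of 0.483 (exact interval 0.195 to 1.10), and the demethylase gene Kdm6b 42 and 55. Suz12 and Hdac1, with 9 mdx reads each, Sirt1, with 6, and Phf1, with 14, were lost. Of 21 MHC and antigen processing genes 10 were kept (47.6%), 0 lost and 4 gained (19.0%), each of the gained with 5 to 7 reads. The median ratio of the kept members was 0.792 (0.817 in merged regions), with Cd74, the invariant chain, at 21 and 8 reads, H2-K1 at 19 and 7 and B2m at 66 and 60. H2-K1 belongs to a family of near-identical genes, so its reads are uncertain.

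Matrix and muscle genes were largely bare. None of the 33 collagen genes had a peak in either list. Of 21 matrix proteases and their inhibitors 3 were kept (14.3%), 2 lost (9.52%) and 1 gained (4.76%). Over all genes these shares were 23.3%, 4.95% and 7.06%. The lost ones were Mmp14 with 17 mdx reads and Plaur with 6, the gained one Mmp19 with 6. Of 28 muscle genes 4 were kept (14.3%), Mef2a, Mef2d, Tnnc1 and Utrn, and the other 24 had no peak. Utrn, which encodes the dystrophin homologue utrophin, had 7 mdx, 19 mdxTLR4-/- and 10 WT reads, a ratio of 3.06 (exact interval 1.23 to 8.61). The study's own lists were those it had applied to H3K27me3. Its pro-inflammatory genes were kept in 295 of 679 cases, lost in 40 and gained in 59, with a median ratio of 0.947. The anti-inflammatory genes were kept in 248 of 762, lost in 63 and gained in 78, with a median ratio of 1.01. The pro-fibrotic genes were kept in 10 of 59, lost in 1 (1.69%) and gained in 5 (8.47%). Lost and gained shares were 5.89% and 8.69% for the pro-inflammatory and 8.27% and 10.2% for the anti-inflammatory list, against 4.95% and 7.06% of all genes. Kept shares were 43.4%, 32.5% and 16.9% for the pro-inflammatory, anti-inflammatory and pro-fibrotic genes, against 23.3% of all genes.

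**Figure D5:**
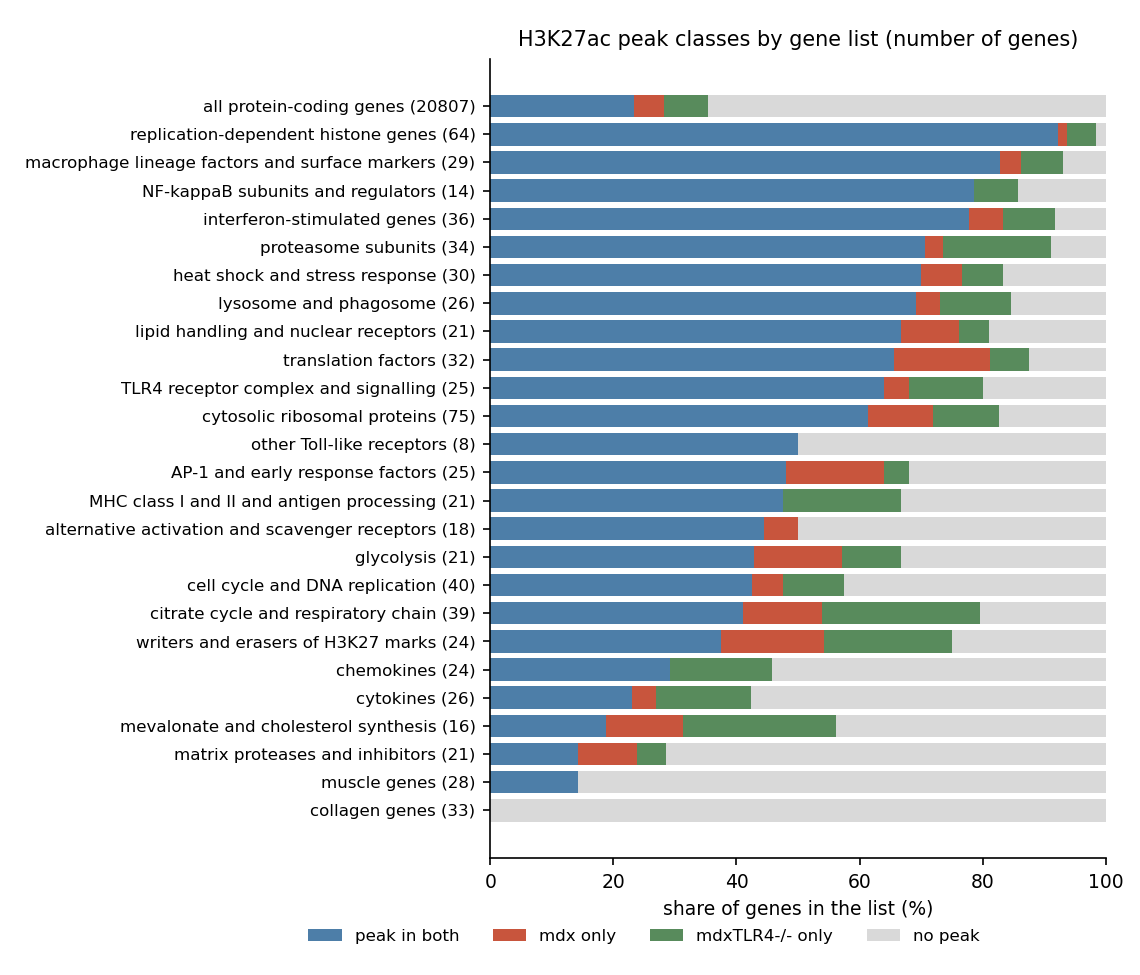
Share of genes in each list (horizontal axis, percent) with a peak in both lists (blue), in mdx only (red), in mdxTLR4-/- only (green) or in neither (grey), with the number of genes in brackets and all 20807 protein-coding genes on top. Replication-dependent histone genes (92.2% kept) and macrophage genes (82.8% kept) lead, and the collagen genes have no peak.

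Across the lists, the counts of lost and gained members rest on few reads, since most such members had under 20, and a list's median ratio near 1 depends on the scaling, that of the TLR4 signalling list being 1.05 scaled and 0.934 unscaled. Of 338 kept genes of the lists with at least 20 reads, 10, among them Itgb2, Fabp5, Ctsl, Idh1 and Abca1, were higher by 2-fold or more only with the scaling. Another 16, among them Irf5, Nfkb1 and the cathepsin genes Ctsd and Ctsh, were lower by 2-fold or more only without it. At Ctsd, 1 mdx peak of 126 reads overlapped mdxTLR4-/- peaks of 33, 29 and 19 reads. The last of these lay outside the window, so the edge of the window lowers the ratio of Ctsd.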

How the data were processed

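H3K27ac was measured by native ChIP-seq, with micrococcal nuclease digestion, in unstimulated BMDM. Per the labels and the study's methods, the authors trimmed reads with cutadapt 1.15, mapped them to mm10 with Bowtie2 2.3.4, merged the libraries of a genotype and called peaks with SICER 2.0 (window 200 bp, gap 600 bp, FDR 0.01). CASAVA 1.8 is also named in the submitters' processing notes. The deposited values are counts of reads per peak, 1 list per genotype, with no scaling and no subtraction of input. The end of each peak was taken as inclusive, from the 200 bp grid.

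Peaks of chromosomes 1 to 19 were assigned to protein-coding genes of GENCODE vM21 where they overlapped, by at least 1 bp, the 5 kb either side of the gene's start. Reads of all touching peaks were summed. Reads of mdxTLR4-/- BMDM were scaled by the ratio of reads in autosomal peaks. Merged regions, chosen after the data were seen, join overlapping peaks of both lists. A peak of 1 list alone also counted as a region. Lost and gained genes were given no fold, since a list holds only peaks that passed the caller. Changed genes had a scaled ratio at or past 2-fold with at least 20 reads in the lists together. Genes were named as the study's markers, the lost and gained genes with the most reads, the extremes of the ratio among kept genes, members of fixed lists, and the kept genes with the most reads. The lost and gained genes without an overlapping peak, the extremes in merged regions, the interferon gene cluster, the largest unmatched peak and the genes cited as level were added after their values were seen. The members and lists were chosen with earlier results of these data known. Upstream sequences and motifs were read from the GRCm38 assembly, the build of the peaks, at the GENCODE starts. Columns of unlabelled samples numbered 0. Reads carry no molecular identifiers, so duplicates cannot be told from independent reads. The intervals take every read as independent, cover counting error only, and are too narrow where duplicates were counted. Scripts, tested on simulated peak lists, used Python 3.11.15, numpy 2.4.6, pandas 2.3.3, scipy 1.17.1 and matplotlib 3.10.9. A few genes that the rules would name are not reported here.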

Additional observations from a re-analysis of the deposited data

How the results depend on the processing

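Of 57 values under alternative settings, 35 stayed within the limits set for each result, 20 moved and 2 reversed. Gained exceeded lost genes by 439. The excess was 258 with the 5 kb upstream alone and 268 with the same number of peaks by reads. It reversed to -602 with peaks of at least 10 reads in both lists (656 gained), and to -89 when such peaks were set against any peak of the other list (380 lost, 291 gained). The share of peaks without an overlapping peak was 40.0% in mdx and 42.1% in mdxTLR4-/- BMDM when 50% of the shorter peak had to overlap, 39.6% and 38.6% with the same number of peaks by reads, and 15.4% and 10.9% for peaks of at least 10 reads. The median ratio of kept genes was 0.875 unscaled, 0.77 when scaled to the 1st percentile of read density and 1.01 among genes with at least 20 reads. Genes past 2-fold numbered 187 higher and 470 lower unscaled, and 27 higher and 45 lower with at least 50 reads. At 1.5-fold 725 were higher and 716 lower. The scaling and the floor on reads act here by construction, and the depth of the libraries, which limits the faint peaks, is unknown.

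No paired analysis was possible because the libraries of a genotype were merged before peaks were called and mdxTLR4-/- BMDM had 1 library. Leaving out a replicate could not be run for the same reason. Counting peaks that reach the other list outside the window as kept, summing over merged regions and scaling without dense peaks were alternatives added after the data were seen.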

Other observations

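On chromosome X, outside the comparison, the mdx list had 337 peaks with 3848 reads, the mdxTLR4-/- list 247 peaks with 2707 reads and the WT list 470 peaks with 5906 reads. On chromosome Y the mdx list had 158 peaks with 1273 reads, the mdxTLR4-/- list 42 peaks with 275 reads and the WT list 233 peaks with 2051 reads. Across the autosomes, the median scaled ratio of mdxTLR4-/- to mdx reads at kept genes, over merged regions, lay between 0.867 on chromosome 4 and 1.06 on chromosome 13. The share of genes lost lay between 3.90% on chromosome 18 and 6.25% on chromosome 8, and the share gained between 4.95% on chromosome 6 and 9.90% on chromosome 8.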
